A study of Mus musculus with 4 samples.

Results

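Splicing factors and RNA-binding proteins are encoded by transcripts that can themselves carry N6-methyladenosine (m6A), and 69 such genes had at least 1 m6A peak in mouse heart. They were taken by gene symbol, as the members of 6 name families (Srsf, Sf3a or Sf3b, Prpf, Snrnp, Hnrnp and Rbm followed by a number), from the 6653 genes with a peak in at least 1 of the deposited lists. Hnrnpa2b1, Hnrnpc, Rbm15 and Rbm15b, which read or help write m6A, were left out by the same rule, and all 4 had a peak. The choice used names and the presence of a peak in either list, not the size of any value.

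Hearts of C57BL/6 mice given the CHAPIR mimic (labelled CHAPIR-overexpressed) were set against hearts of C57BL/6 mice given a scrambled mimic (NC). The labels give a dose of 30 mg/kg for the CHAPIR mimic, delivered for 14 days from an osmotic minipump on the back, and say that NC was given in the same way. The samples carry a 2-week time in their titles, and the sources used here give neither the age nor the sex of the mice, nor how many hearts went into a library. With 1 immunoprecipitated and 1 input library for CHAPIR and the same for NC, no difference between CHAPIR and NC has a replicate check, and no test between the conditions was made. The tissue is heart, not sorted cells, so fewer cells of a type and less RNA per cell cannot be told apart.

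The deposited peak lists hold 1 line per peak and transcript. The CHAPIR list has 301 lines for 56 of the 69 genes, out of 16562 lines and 4572 genes in all. The NC list has 413 lines for 64 of the 69 genes, out of 23155 lines and 5638 genes. The lists also differed over all genes: the median peak covered 181 exonic bases in the CHAPIR list and 238 in the NC list. All 6 cardiomyocyte markers examined (Myh6, Tnnt2, Tnni3, Actc1, Ryr2 and Mybpc3) had a peak, 5 in both lists and Actc1 in the CHAPIR list only. Of the markers of other cells, 3 of 4 endothelial, 4 of 5 fibroblast and 2 of 3 smooth muscle genes were in both lists. Of 5 macrophage markers with a peak, 3 (C1qb, C1qc and Lyz2) were in the CHAPIR list only, and all 4 adipocyte markers (Adipoq, Plin1, Cfd and Cidea) were in the NC list only. The Y-linked Ddx3y and Eif2s3y, looked up after earlier results were known, had peaks in CHAPIR alone, and Xist in NC alone. The part of these differences in the results below was not tested.

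m6A is written on nascent and mature RNA by a methyltransferase complex, mostly in long exons, near stop codons and in 3' UTRs, and readers bound to it can alter splicing, export, translation and decay. SR proteins and hnRNPs are the classic antagonistic regulators of exon choice, the Sf3, Snrnp and Prpf proteins build the spliceosome, and many RBM proteins steer splicing in particular tissues. Several splicing regulators control their own level by splicing their transcripts into forms that are retained in the nucleus or destroyed by nonsense-mediated decay. In heart, Rbm20, Rbm24 and Srsf-family proteins are known to direct the splicing of sarcomere and calcium-handling transcripts.

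Sequence could be shown only where a peak reached the first 50 bases after a RefSeq gene start, because a genome was not used here. RefSeq (GRCm38.p6) gave a window from 250 bases before to 50 after a start for 59 of the 69 genes, and peak bases lay inside it for 6. These 6 stretches are peak bases shortly after the start of the gene, and capitals mark any form of the m6A consensus found in peak bases on the transcribed strand.
Srsf5: gagctgctaagtgcgtcagttgtggagag
Hnrnpm: gcgcagctcgacagagcccgct
Hnrnpd: ccattttaggtggtccgcggcggcgccatt
Hnrnph3: agcgagggagccGAACCgttgtggcgagcg
Hnrnpl: ggaggctgctgccccgggcgga
Snrnp27: ggaGGACTccgatgggtcgaagtcgtagcc

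The Srsf5 stretch is chr12:80945520-80945548 on the plus strand, and all 29 of its bases lay in a CHAPIR peak and 0 in an NC peak. The Hnrnpm stretch, chr17:33685409-33685430 on the minus strand, lay whole in peaks of both lists. The Hnrnpd stretch (chr5:99978909-99978938, minus strand) had 26 of its 30 bases in a CHAPIR peak and 30 in an NC peak. The CHAPIR peaks of these 3 genes thus came close to the RefSeq start without covering all of the bases after it. The Hnrnph3 stretch (chr10:63023803-63023832, minus strand) had 15 of 30 bases in a CHAPIR peak and 30 in an NC peak. The stretches of Hnrnpl (chr7:28810918-28810939, plus strand) and Snrnp27 (chr6:86684462-86684491, minus strand) lay in NC peaks only. The consensus was searched as the 18 forms of NNACN in which the first base is A, G or T, the second is A or G and the last is A, C or T. Snrnp27 held GGACT, Hnrnph3 held GAACC, and the other 4 stretches held none, which says only that these letters are not there. Over the 32851 RefSeq windows, the 50 bases after the start held any of the forms in 54.4% on the transcribed strand and 55.2% on the other strand, GGACT in 5.76% and 4.87%, and GAACC in 4.29% and 4.30%.

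The presence of a peak was compared first. Of the 69 genes, 51 had a peak in both lists, which is 73.9% (95% Wilson interval 62.5 to 82.8%, counting error only), against 53.5% of all 6653 genes. A CHAPIR peak without an NC peak was found for 5 genes, or 7.25% (3.13 to 15.9%), against 15.3% of all genes. An NC peak without a CHAPIR peak was found for 13 genes, or 18.8% (11.4 to 29.6%), against 31.3% of all genes. The interval for genes in both lists lies above the share over all genes, that for genes with NC peaks alone lies below it, and that for genes with CHAPIR peaks alone includes it. Of these contrasts with all genes, only that for genes in both lists was kept at a fold of 4 or more (55.8%, 42.3 to 68.4%, against 36.6%). In lists of equal length the share in both was 71.2% (59.4 to 80.7%) against 56.3%, that with NC peaks alone 15.2% (8.44 to 25.7%) against 19.6%, and that with CHAPIR peaks alone 13.6% (7.34 to 23.9%) against 24.1%. With only peaks at an FDR of 1e-05 or less neither contrast was kept: 63.2% (50.2 to 74.5%) were in both lists, against 51.6% of all genes, and 28.1% (18.1 to 40.8%) had NC peaks alone, against 30%. The CHAPIR and NC counts of genes in a single list were 12 and 11 at a fold of 4 or more, and 9 and 10 in lists of equal length.

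**Figure D1:**
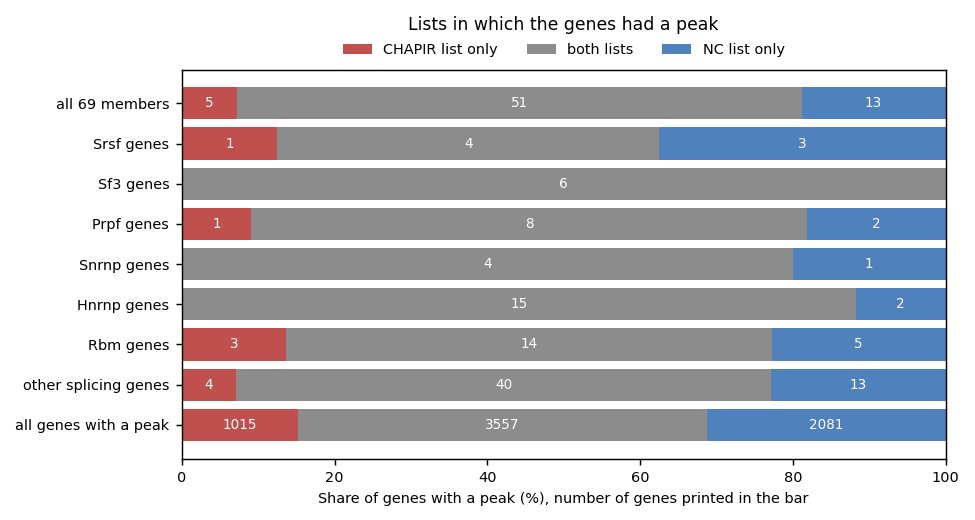
Share of genes (horizontal axis, %) whose peaks were in the CHAPIR list only, in both lists, or in the NC list only, for each name family, for all 69 genes and for all 6653 genes with a peak; the number of genes is printed in the bars. All 6 Sf3 genes were in both lists, and the Srsf family had the lowest share in both, 4 of 8.

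Within the families, all 6 Sf3 genes, 15 of 17 Hnrnp genes, 4 of 5 Snrnp genes, 8 of 11 Prpf genes, 14 of 22 Rbm genes and 4 of 8 Srsf genes had a peak in both lists. The 5 genes found in the CHAPIR list only were Srsf2, Prpf8, Rbm12, Rbm38 and Rbm45. Their peaks were short, with a median of 119 bases for the peak of smallest FDR, and 4 of the 5 lay wholly in the 3' UTR. The 13 genes found in the NC list only were Srsf6, Srsf7, Srsf10, Snrnp35, Prpf3, Prpf6, Hnrnpf, Hnrnph1, Rbm4b, Rbm12b1, Rbm27, Rbm28 and Rbm34. Of their peaks of smallest FDR, 8 lay in the coding sequence and 1 wholly in the 3' UTR. Genes in a single list showed the same difference over the whole series: 602 of 1015 genes of the CHAPIR list only had a best peak in the 3' UTR and 80 in the coding sequence, against 500 and 781 of 2081 genes of the NC list only.

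Fold enrichment and FDR are the authors' own values for a peak, immunoprecipitated over input signal within 1 condition, and are not scaled between the lists. They are given here to describe and rank peaks within a list, and a higher fold in either list is not a measured change. Each gene is described by its peak of smallest FDR. Such a peak reached an FDR of 1e-05 or less in 41 of 56 genes of the CHAPIR list (73.2%, against 66.7% of all genes in that list). In the NC list 52 of 64 genes did so (81.3%, against 63.1%). Its fold ran between 1.93 and 29.1 in the CHAPIR list, with a median of 4.78, and between 1.55 and 25.2 in the NC list, with a median of 3.98.

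**Figure D2:**
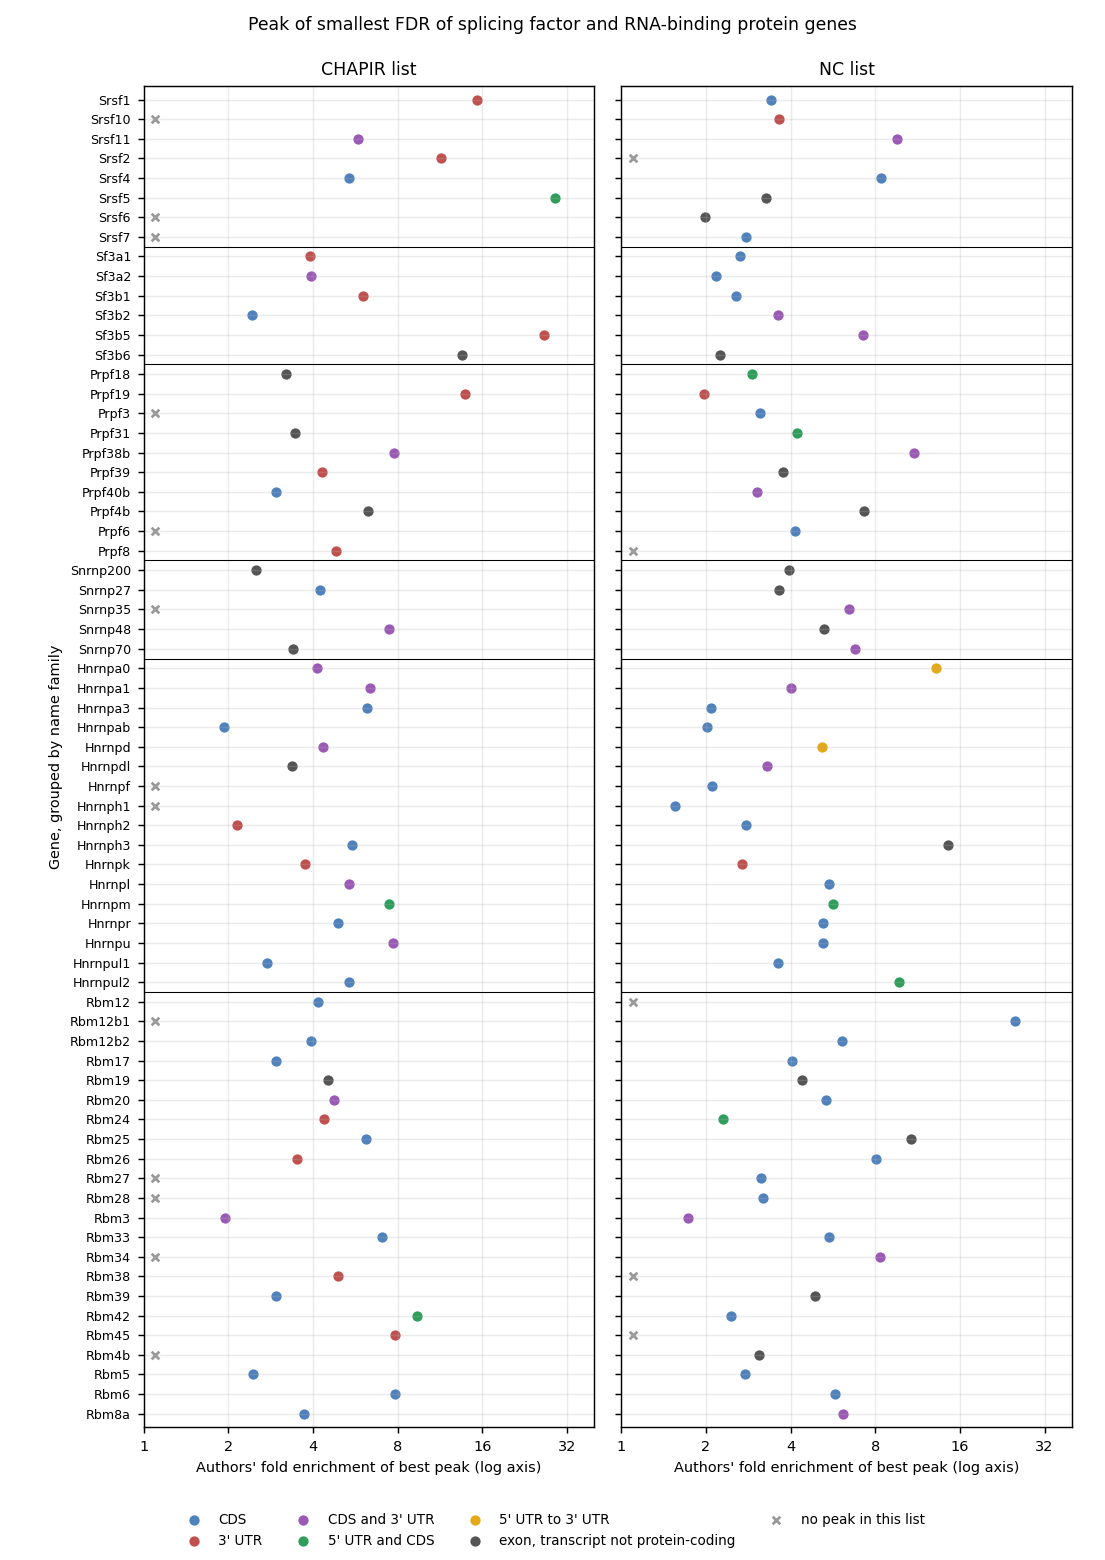
Authors' fold enrichment (log axis) of the peak of smallest FDR for 68 of the 69 genes in the CHAPIR list (left) and the NC list (right), coloured by the transcript region of the peak; a cross marks a gene with no peak in that list. The highest value is Srsf5 in the CHAPIR list (29.1) and Rbm12b1 in the NC list (25.2); folds are not comparable between the panels.

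The SR proteins, which bind exonic enhancers and recruit the spliceosome, had the lowest share of genes found in both lists, over only 8 genes. Srsf5, an SR protein known to respond to growth signals, had the peak of highest fold among the 69 genes in the CHAPIR list. On transcript ENSMUST00000094693 the CHAPIR peak spanned chr12:80945534-80947851 (5' UTR and coding sequence, 510 exonic bases) with fold 29.1 and FDR 1.26e-79, and the NC peak on the same transcript began at 80945564 with fold 3.22. Its fold was above that of 99% of all peaks in the CHAPIR list. The value depended on the transcript to which the peak was assigned. On ENSMUST00000110356 the CHAPIR and NC peaks were identical, 80945615 to 80947858, with fold 3.10 in the CHAPIR list and 3.06 in the NC list. Over all 9 transcripts with a peak the Srsf5 folds ran between 2.53 and 29.1 in the CHAPIR list and between 1.38 and 4.13 in the NC list. The 5 CHAPIR peaks of highest fold, 20.8 to 29.1, all began within the stretch printed above. A peak across the stop codon was found in the NC list only, at 80949879 to 80949998 with fold 1.40.

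Srsf1, the prototype SR protein, showed peaks at 2 places in both lists, the coding sequence and the 3' UTR. Its strongest CHAPIR peak by FDR lay in the 3' UTR, chr11:88051239-88051539, with fold 15.3, and the NC peak at that place had fold 5.31. In the coding sequence of the same transcript the CHAPIR peak had 210 bases and fold 2.51, and the NC peak, 88047912 to 88049096 and the strongest of that list by FDR, had 360 bases and fold 3.41. Srsf2, known for regulating its own transcript through nonsense-mediated decay, had peaks in the CHAPIR list only, the strongest at chr11:116849901-116850049 in the 3' UTR with fold 11.4 and FDR 2.51e-19. Reads there may not all be from Srsf2: up to 178 bases of its peaks were also listed for Mettl23 on the other strand, and no source used here says whether the authors counted by strand.

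Srsf4 and Srsf11 had long coding-sequence peaks in both lists. For Srsf4 the peak had fold 5.36 over 565 bases in the CHAPIR list and 8.40 over 833 bases in the NC list, and up to 559 and 678 of these bases were also listed for Gm12992 on the other strand. For Srsf11, which lies at the border of the SR family, the peak crossed the stop codon in both lists, with fold 5.77 over 568 bases in CHAPIR and 9.54 over 807 bases in NC. Srsf6, Srsf7 and Srsf10 had NC peaks only. Srsf6 had fold 1.99 with FDR 0.00110, Srsf7 had fold 2.77 with FDR 5.25e-06 and Srsf10 had fold 3.64 with FDR 4.17e-06. Within the NC list these folds were above those of 10.1%, 32.4% and 52.8% of all peaks.

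The SF3A and SF3B subunits of the U2 particle recognise the branch point. All 6 with a peak were in both lists. Sf3b1, the largest subunit and the one that contacts the branch helix, had 2 coding-sequence places in common between the lists, with fold 2.24 and 2.89 in CHAPIR and 2.04 and 2.55 in NC. Another place, in the 3' UTR at chr1:54986994-54987084, was in the CHAPIR list only, with fold 6.01 and FDR 2.40e-08. Sf3b5, a small subunit encoded by a short transcript, had nearly the same peak in both lists, and its deposited region differed. At chr10:13008885-13009183 the CHAPIR peak was annotated as 3' UTR with fold 26.5, and the NC peak, which began at 13008856 and ended at the same base, as coding sequence and 3' UTR with fold 7.24. Sf3a1 had an identical 3' UTR peak in both lists, with fold 3.90 in CHAPIR and 4.43 in NC, and 2 further coding-sequence peaks in NC only. Sf3b2 had 3 peaks in each list, the strongest with fold 2.42 over 480 bases in CHAPIR and 3.62 over 688 bases in NC.

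Proteins of the U1 particle, the tri-snRNP and the minor spliceosome followed. Snrnp70, the U1 subunit that binds the U1 RNA, had 2 separate peaks on transcript ENSMUST00000074575 in the CHAPIR list, of 180 bases with fold 3.84 across the stop codon and of 360 bases with fold 3.36 in the coding sequence. In the NC list that transcript had a peak of 988 bases and fold 6.79 across the stop codon, and its FDR of 1e-178 was the smallest of all 69 genes. Snrnp200, the helicase that unwinds the U4/U6 duplex, had its strongest peak on a retained-intron transcript in both lists, with fold 2.51 over 180 bases in CHAPIR and 3.96 over 627 bases in NC. Snrnp27, of the tri-snRNP, had fold 4.23 over 326 bases in CHAPIR and 3.63 over 529 bases in NC. Snrnp48 and Snrnp35 belong to the minor spliceosome, which removes a rare class of introns. Snrnp48 was in both lists, with fold 7.43 in CHAPIR and 5.26 in NC, and Snrnp35 in the NC list only, with fold 6.44 and FDR 2.09e-06.

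Prpf8, the protein at the catalytic centre of the spliceosome, had a 3' UTR peak in the CHAPIR list only, chr11:75509299-75509449, with fold 4.82 and FDR 1.26e-13. Among the other proteins of the U4/U6.U5 tri-snRNP, Prpf3 and Prpf6 had NC peaks alone, and Prpf31, Prpf4b, Snrnp200 and Snrnp27 had peaks in both lists. Prpf6, which bridges the particles, had fold 4.14 with FDR 1.26e-14 in the NC list only, and Prpf3, a U4/U6 protein, had fold 3.11 with FDR 8.71e-05 in the NC list only. Prpf19, the ubiquitin ligase of the activated spliceosome, had a 61-base 3' UTR peak with fold 13.9 in CHAPIR, and on the same transcript (ENSMUST00000179297) a 270-base peak with fold 6.08 in NC. Its NC peak of smallest FDR was on another transcript, with fold 1.97 over 179 bases of the 3' UTR. Prpf38b had long peaks across the stop codon in both lists, with fold 7.74 over 630 bases in CHAPIR and 11 over 1020 bases in NC. The kinase gene Prpf4b had fold 6.28 over 748 bases in CHAPIR and 7.30 over 1675 bases in NC. Prpf39, a U1-associated protein, had fold 4.31 in CHAPIR and 3.75 in NC at almost the same bases of the transcript end, where Fkbp3 on the other strand had up to 194 and 164 peak bases in common with it.

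**Figure D3:**
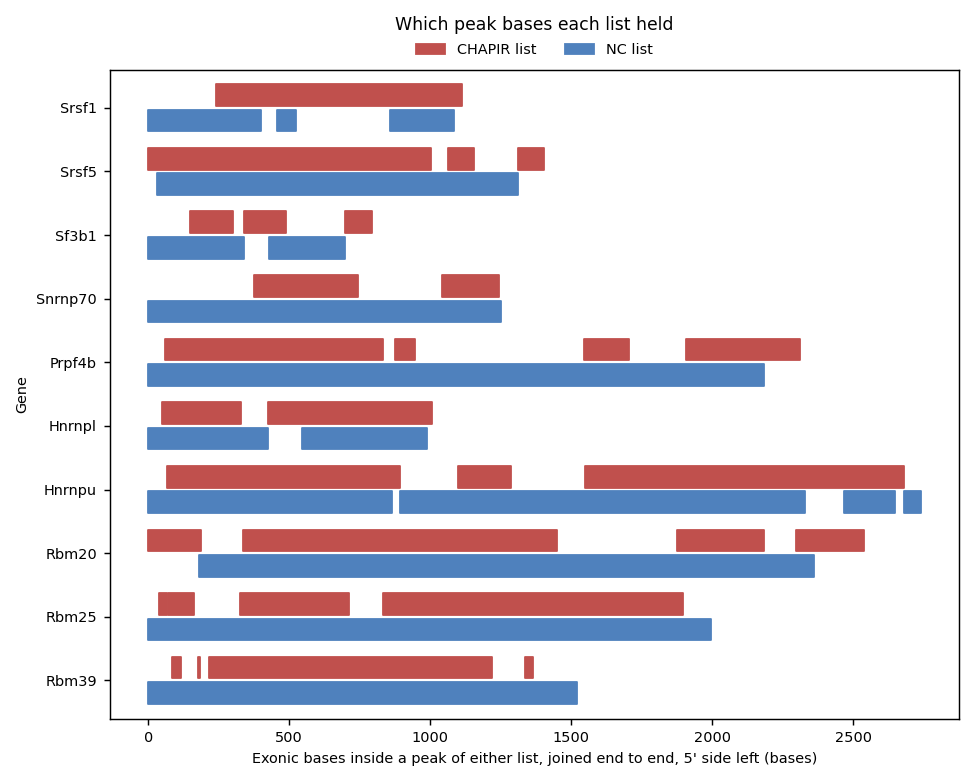
Exonic bases inside a peak of either list for 10 of the genes, joined end to end with the 5' side to the left (horizontal axis, bases), with the CHAPIR list above the NC list for each gene. In Snrnp70 the NC list covered stretches that the CHAPIR list held in separate pieces, and in Sf3b1 the last piece was in the CHAPIR list only. Joining removes gaps between peaks, so a single bar can hold separate peaks: Rbm20 had peaks at 5 separate places in each list.

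The hnRNPs package nascent transcripts and often repress exons, and 15 of 17 had a peak in both lists. Hnrnpu, a nuclear scaffold protein needed for cardiac splicing in mouse, had the smallest FDR of the 69 genes in the CHAPIR list, 1e-91, for a peak of fold 7.72 across the stop codon. Its strongest NC peak, of FDR 1e-133 and fold 5.22, lay in the coding sequence. On that transcript, ENSMUST00000037748, each list had a peak at both places. The NC fold across the stop codon was 2.81 (FDR 1.58e-46), and the CHAPIR fold in the coding sequence was 3.85 (FDR 6.31e-62). In all, 2143 Hnrnpu bases lay in CHAPIR peaks and 2544 in NC peaks, with 1947 in both. Part of the Hnrnpu peaks, up to 177 bases in CHAPIR and 89 in NC, was also listed for Cox20 on the other strand. Hnrnpul2, its relative, had fold 5.36 over 840 bases in CHAPIR and 9.70 over 1020 bases in NC.

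Hnrnpl, a regulator that binds CA-rich RNA, had its strongest peak across the stop codon in CHAPIR (fold 5.35, FDR 7.94e-56) and near the start of the gene in NC (fold 5.49, FDR 3.98e-37). Both lists had a peak at each place. On ENSMUST00000174477 the fold across the stop codon was 5.40 in CHAPIR and 2.19 in NC, and near the start 5.86 and 5.49. The order near the start depended on the transcript. The CHAPIR and NC folds there were 5.77 and 5.47 on ENSMUST00000174755, 4.16 and 5.28 on ENSMUST00000174548, and 4.16 and 11.8 on ENSMUST00000038572. Hnrnpm, known to act in muscle splicing, had fold 7.46 over 841 bases in CHAPIR and 5.65 over 1679 bases in NC, both reaching the 5' UTR. Hnrnpk, which binds C-rich RNA, had its strongest peak at the same 3' UTR start in both lists, chr13:58391955, with fold 3.76 over 210 bases in CHAPIR and 2.69 over 329 bases in NC. Weak coding-sequence peaks of Hnrnpk, of fold 1.37 to 1.46, were in the CHAPIR list only. Hnrnpdl had fold 3.37 in CHAPIR and 3.31 in NC, with all 614 of its CHAPIR bases also in NC peaks. Hnrnpa1, a main silencer of exons, had fold 6.39 over 600 bases in CHAPIR and 4.0 over 1049 bases in NC. Hnrnph1 and Hnrnpf, which bind G-runs, were in the NC list only and were weak there, with fold 1.55 (FDR 1.48e-05) and 2.11 (FDR 0.0355). Hnrnpa1, Hnrnph1 and Hnrnph2 have near copies in the genome, and no source used here says how reads that fit several copies were treated.

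Among the RBM genes, Rbm20 had peaks at 5 separate places in each list. RBM20 represses exons of titin and calcium-handling transcripts, and its loss or mutation causes cardiomyopathy in humans. Its strongest peak in the CHAPIR list crossed the stop codon, chr19:53864114-53864414 on transcript ENSMUST00000164202, with fold 4.74 and FDR 3.16e-25. The NC list also had a peak across that stop codon, 53859488 to 53864444, with fold 4.36 and FDR 6.31e-58. The strongest NC peak lay in the coding sequence, 53843272 to 53859398, with 1439 exonic bases, fold 5.33 and FDR 1.58e-100. The coding-sequence peak in the CHAPIR list, 53843332 to 53851656 on the same transcript, had 1080 bases and fold 3.24. At this place the NC list thus held more of the coding sequence of Rbm20. Further to the 5' side, a CHAPIR coding-sequence peak, 53813860 to 53814040 with fold 2.38, ended where an NC peak of fold 1.84 began. In the 3' UTR, 1 place was in the CHAPIR list alone: 53866930 to 53867080, with fold 21.3 and FDR 6.31e-11. Another 3' UTR place was in the NC list alone: 53865672 to 53865732, with fold 1.60 and FDR 0.000955. In all, 1849 Rbm20 bases lay in CHAPIR peaks and 2182 in NC peaks, with 1492 in both.

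Rbm24, a muscle regulator that promotes exon inclusion, had a single peak per list on the same transcript with no base in common. The CHAPIR peak was in the 3' UTR, chr13:46430885-46431095, with fold 4.37, and the NC peak in the 5' UTR and coding sequence, 46418913 to 46419063, with fold 2.30. Rbm38, a relative of Rbm24 that stabilises transcripts in several cell types, had a 60-base 3' UTR peak in the CHAPIR list only, with fold 4.90 and FDR 0.000251. Rbm45 and Rbm12 were also in the CHAPIR list only, with fold 7.80 and 4.16 and an FDR of 0.00282 for each, and the Rbm12 peak was listed for Gm28036 on the same strand too.

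Rbm25 and Rbm39, a pair of spliceosome-associated regulators, had broad peaks in both lists. For Rbm25 the strongest had fold 6.18 over 1380 bases in CHAPIR and 10.7 over 570 bases in NC, and at the position of that NC peak, on the same retained-intron transcript, the CHAPIR list had a peak of fold 6.19. For Rbm39 it had fold 2.96 over 388 bases in CHAPIR and 4.90 over 600 bases in NC. Rbm8a, a core protein of the exon junction complex, had fold 3.73 over 241 bases in CHAPIR and 6.15 over 600 bases in NC, where it reached into the 3' UTR. Rbm3, induced by cold, had weak peaks in both lists, with fold 1.95 in CHAPIR and 1.73 in NC. In the NC list only, Rbm12b1 had the highest fold of the 69 genes, 25.2 with FDR 7.76e-07, and Rbm28, Rbm27 and Rbm4b had folds of 3.20, 3.15 and 3.09. Rbm12b1 has a close copy, Rbm12b2, which was in both lists.

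The bases covered were compared next, for the 51 genes with a peak in both lists. The median gene had 371 exonic bases inside CHAPIR peaks and 870 inside NC peaks, against 319 and 499 bases over the 3557 genes found in both lists. More bases lay in NC peaks for 43 of the 51 genes (84.3%, against 70.7% of all such genes), and more in CHAPIR peaks for the other 8. For the median gene, 96.4% of its CHAPIR bases were also in an NC peak, and 53.3% of its NC bases also in a CHAPIR peak. Over all genes these medians were 87.6% and 55.4%. The CHAPIR peaks of these genes were thus mostly contained in the NC peaks. For 22 genes (43.1%, against 37.2% of all such genes) every CHAPIR base was in an NC peak. Among them were Hnrnpm, Rbm25, Rbm39, Snrnp70 and Srsf11. Summed over the 51 genes, 30460 bases lay in CHAPIR peaks and 47785 in NC peaks, and 26365 lay in both.

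**Figure D4:**
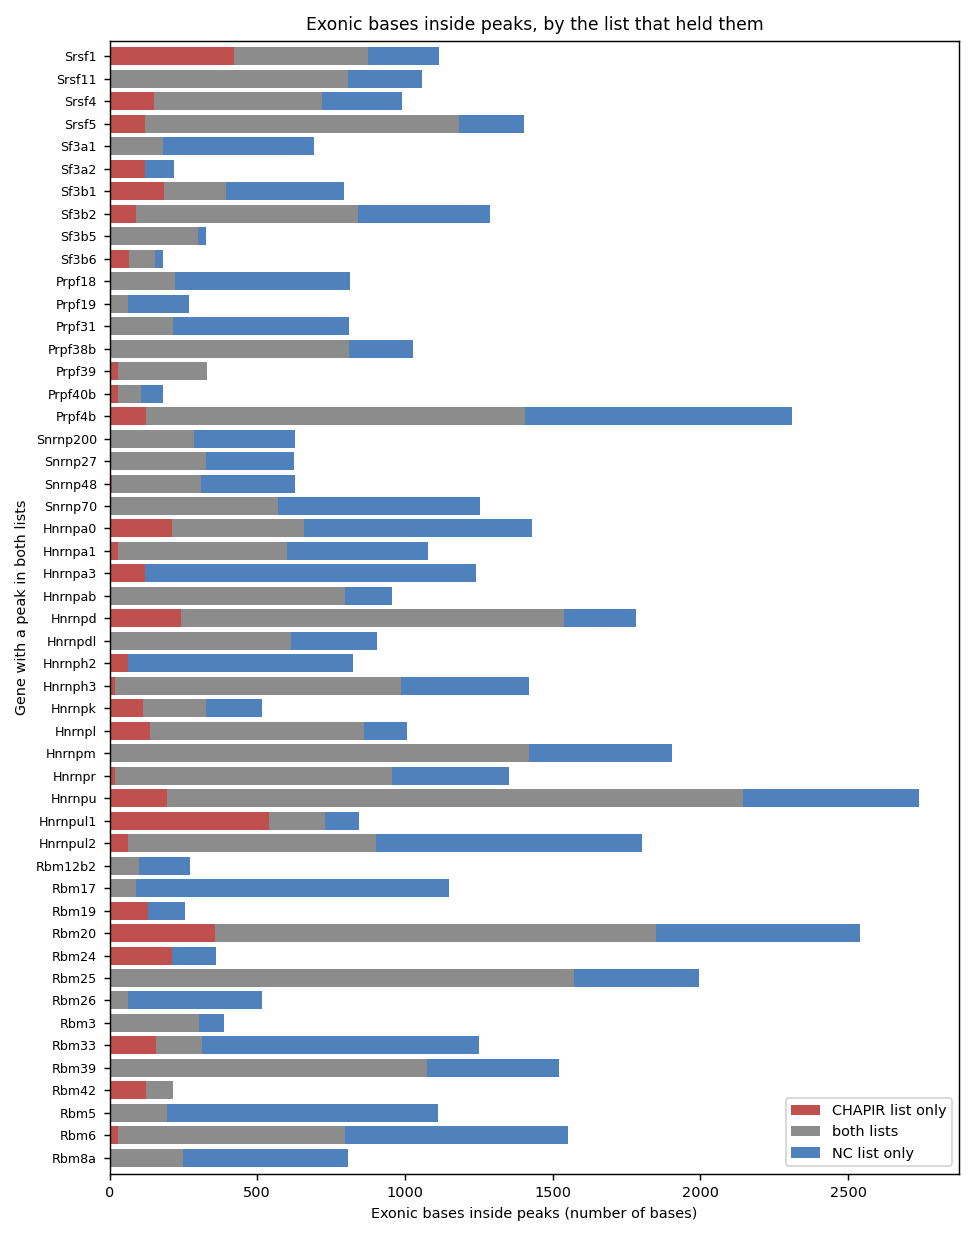
Exonic bases inside peaks (horizontal axis, number of bases) of 50 of the 51 genes with a peak in both lists, split into bases in the CHAPIR list only, in both lists and in the NC list only. NC bases exceeded CHAPIR bases in 42 of the 50 genes plotted, and 5 genes had no base in common.

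No base in common was found for 5 of the 51 genes, or 9.80%, against 9.39% of all genes in both lists: Hnrnpa3, Hnrnph2, Rbm19, Rbm24 and Sf3a2. Counted by lines, 247 of 301 CHAPIR lines (82.1%, 77.3 to 86.0%) shared at least 1 base with an NC peak of that strand, against 72.3% of all CHAPIR lines. Of the NC lines, 241 of 413 (58.4%, 53.5 to 63.0%) met a CHAPIR peak, against 50.5% of all NC lines. Lines of a gene repeat on several transcripts, so they are not independent, and these intervals are too narrow.

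The place of peaks within transcripts was taken from the deposited annotation, over 179 CHAPIR lines and 248 NC lines on protein-coding transcripts. Wholly coding-sequence peaks made up 52.5% of CHAPIR lines (45.2 to 59.7%) and 51.6% of NC lines (45.4 to 57.8%). Over all genes the shares were 36.8% and 50.1%. Peaks wholly in the 3' UTR made up 22.9% of CHAPIR lines (17.4 to 29.6%) and 12.1% of NC lines (8.61 to 16.7%), against 38.7% and 23.1% over all genes. The splicing genes thus had a smaller 3' UTR share than all genes in either list, and a larger 3' UTR share in CHAPIR than in NC, as all genes had. Peaks annotated to coding sequence and 3' UTR made up 16.2% of CHAPIR lines and 21.8% of NC lines, against 17.1% and 18.2% over all genes. Those annotated to 5' UTR and coding sequence made up 7.82% and 11.3%, against 4.66% and 5.68%. Peaks from the 5' UTR to the 3' UTR, which cross both the start and the stop codon, made up 0.559% and 3.23%, against 0.563% and 0.693%. No line of these genes lay wholly in the 5' UTR, 0 of 179 in CHAPIR and 0 of 248 in NC. Such lines were also few over all genes, 2.17% in CHAPIR and 2.27% in NC. Since lines repeat over transcripts, the limit is given by gene: 0 of 56 genes in CHAPIR and 0 of 63 in NC, which allows a share of up to 5.36% and 4.76% (3 genes of the total).

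**Figure D5:**
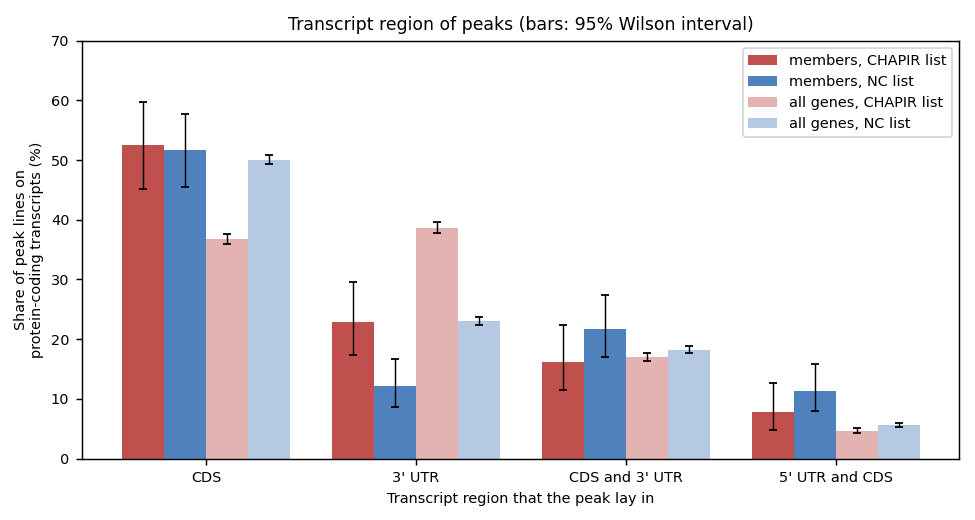
Share of peak lines on protein-coding transcripts (vertical axis, %) by transcript region, for the splicing genes and for all genes in each list, with 95% Wilson intervals that cover counting error only. Wholly coding-sequence peaks stand at 52.5% (CHAPIR) and 51.6% (NC) for the splicing genes and at 36.8% and 50.1% for all genes.

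By gene, among the 51 found in both lists, 9 had a wholly 3' UTR peak in both (17.6%, against 34.9% of all such genes). Such a peak was in the CHAPIR list only for 11 (21.6%, against 17.1%) and in the NC list only for 2 (3.92%, against 5.85%). The 11 included Sf3b1, Sf3b5, Rbm24, Snrnp70 and Srsf4. Wholly coding-sequence peaks were in both lists for 25 genes (49%, against 31.1%). Such peaks were in CHAPIR only for 9 (17.6%, against 6.49%) and in NC only for 7 (13.7%, against 13.7%). Of the 9, Hnrnpdl, Prpf38b, Rbm3, Rbm8a, Snrnp27 and Snrnp70 had every CHAPIR base in an NC peak, and Hnrnpa0, Hnrnpk and Prpf4b did not. Peaks annotated to coding sequence and 3' UTR, without 5' UTR, were in both for 12 genes (23.5%, against 23.2%). They were in CHAPIR only for 3 (5.88%, against 5.88%) and in NC only for 11 (21.6%, against 13.9%). Of the 3, Hnrnpa0 and Hnrnpd had NC peaks from the 5' UTR to the 3' UTR, which also cross the stop codon. For Sf3b5 and Rbm8a, whose NC peaks were longer, the NC peak crossed a stop codon that the CHAPIR peak did not reach. The part of peak width in these counts was not tested. Peaks annotated to 5' UTR and coding sequence, without 3' UTR, were in both for 6 genes (11.8%, against 5.48%). They were in CHAPIR only for 2 (3.92%, against 2.19%) and in NC only for 9 (17.6%, against 6.58%). Of the 2, Rbm8a had an NC peak from the 5' UTR to the 3' UTR, which also crosses the start of the coding sequence. The same transcript could be compared for 116 protein-coding transcripts of 50 genes. Of these, 51 had the same set of regions in both lists, 16 (10 genes) had a wholly 3' UTR peak in CHAPIR only, and 5 (2 genes) in NC only. The same count by transcript was not made over all genes. By gene, all genes also had such peaks more often in CHAPIR only (17.1%) than in NC only (5.85%).

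Peaks on transcripts that retain an intron or are annotated as targets of nonsense-mediated decay were frequent in these genes. Such lines made up 105 of 301 CHAPIR lines (34.9%, 29.7 to 40.4%) and 127 of 413 NC lines (30.8%, 26.5 to 35.4%), against 16.7% and 18.2% over all genes. A line on a retained-intron transcript was found in 28 of 56 genes of the CHAPIR list (50%, against 22.7% of all genes) and in 34 of 64 genes of the NC list (53.1%, against 25.6%). A line on a decay transcript was found in 19 of 56 genes in CHAPIR (33.9%, against 13.6%) and in 23 of 64 in NC (35.9%, against 15.8%). The difference from all genes was thus present in both lists, and most of the genes were the same: 26 had a retained-intron line in both lists and 18 a decay line in both. Srsf1, Srsf5, Snrnp70, Hnrnpl, Hnrnpu, Rbm25 and Rbm39 had both kinds in both lists, Srsf2 had both kinds in the CHAPIR list only, and Srsf6 in the NC list only.

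Peaks at nearly the same position are often listed on several transcripts of a gene, so a decay or retained-intron line does not show that this form carried the methylation. The splicing genes also had more transcripts with a peak than the average gene, 4.05 per gene against 2.66 in the CHAPIR list and 4.80 against 2.91 in the NC list, and the part of this in the shares above was not tested. Their peaks more often spanned exon junctions: 39.5% of CHAPIR lines and 30.8% of NC lines were in a single block, against 68.5% and 55.4% over all genes. The median fold of all their lines was 3.84 in CHAPIR and 3.23 in NC, against 3.86 and 3.49 over all genes.

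Other splicing genes outside the naming rule gave a similar split. Of 77 listed, 57 had a peak, 40 in both lists, 4 in the CHAPIR list only (Khsrp, Snrpe, Snrpg and Ddx39b) and 13 in the NC list only. These are 70.2%, 7.02% and 22.8%, against 53.5%, 15.3% and 31.3% of all genes with a peak. The 13 included 3 kinases of SR proteins, Clk2, Clk3 and Srpk1, with fold 11.8, 4.29 and 5.50 in the NC list. Clk1 and Srpk2, of the same kinase groups, were in both lists, with fold 2.67 and 4.91 in CHAPIR and 2.57 and 6.64 in NC. Of 12 transcripts known as splicing targets of RBM20, 11 had a peak. Of these, 10 were in both lists (90.9%, against 53.5% of all genes) and Mlip in the CHAPIR list only (9.09%, against 15.3%). Among them Ttn had its strongest peak across the stop codon in CHAPIR, with fold 2.88, and in the coding sequence in NC, with fold 6.52, while Camk2d had fold 9.19 in the 3' UTR in CHAPIR and 2.18 in NC. The kinases and the pair of target genes were picked from these lists after their values were seen.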

How the data were processed

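The members and gene lists were chosen with earlier results of these data known. Per the labels' protocols, mRNA was fragmented to 100 nucleotides, enriched with an anti-m6A antibody, sequenced for 150 cycles from a stranded kit, trimmed with cutadapt and aligned with HISAT2, and peaks were called by exomePeak. HISAT2 was version 2.1.0 and the build GRCm38, per the submitters' processing notes. No source used here gives the threshold or strand setting. The deposited fold enrichment is a ratio, by the authors, of immunoprecipitated over input signal. A p-value and an FDR of each enrichment were deposited by the authors. Peaks were called per condition from 1 immunoprecipitated and 1 input library, and read depth is unknown.

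Starts, deposited from 0, were raised by 1 base. Overlap used exonic blocks of 1 strand sharing at least 1 base (bedtools 2.31.1), checked on simulated peaks. Wilson intervals came from scipy 1.17.1, and tables and figures from Python 3.11.15, pandas 2.3.3, numpy 2.4.6 and matplotlib 3.10.9. All 69 symbols matched RefSeq, and all 120 best peaks lay on the matching RefSeq gene. Genes given with values were, per family, up to 4 of smallest FDR in each class, plus a fixed set of 26 regulators, which named 47 of the 69. Values of 1 of these are not reported here, though it is in all counts. Other members are given by class, and Srsf5 and Rbm20 details beyond the best peak, like other peaks of a named gene, were chosen after their values were seen. Alternatives changed the FDR, fold, list length, overlap, transcript type and peak width.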

Additional observations from a re-analysis of the deposited data

How the results depend on the processing

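No paired analysis was possible because each condition had 1 immunoprecipitated and 1 input library. With only peaks of fold 4 or more, 29 genes were in both lists, 12 in the CHAPIR list only and 11 in the NC list only, so that the excess of genes in the NC list only was not seen. In lists of equal length, 9 were in the CHAPIR list only and 10 in the NC list only. The overlapped share of CHAPIR lines was 88.2% at an FDR of 1e-05 or less, 63.0% at fold 4 or more, 57.5% when at least 50% of both peaks had to overlap, and 76.8% with 1 peak per gene, an alternative chosen after seeing the data. The overlapped share of NC lines under these settings was 68.8%, 64.7%, 40.7% and 65.6%, and 68.7% in lists of equal length. The coding-sequence share of CHAPIR lines was 33.8% at fold 4 or more, 34% for single-block peaks of at most 200 bases and 44.6% with 1 peak per gene, and that of NC lines was 36.7% at fold 4 or more. The 3' UTR share of CHAPIR lines was 60% among the short peaks. The 3' UTR share of NC lines was 5.56% at fold 4 or more, 43.2% among the short peaks and 7.94% with 1 peak per gene. The 3' UTR share was higher in CHAPIR than in NC under every alternative run. Some of these settings keep fewer peaks, while the 50% overlap setting keeps all lines. The cause of these shifts was not tested. Against all genes, the larger share in both lists was lost at an FDR of 1e-05 or less, and the smaller share with NC peaks alone was kept only on protein-coding transcripts. In the other 30 comparisons the value stayed within 1.5 times for a count or within the 95% interval for a share. Without read counts, no depth limit can be given.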

Other observations

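Peaks with the same exonic blocks on the same transcript in both lists were found for 15 lines of 9 of the splicing genes, out of 689 such lines of 408 genes in all. For Hnrnpm they included a coding-sequence peak with fold 7.80 in the CHAPIR list and 4.90 in the NC list, and a retained-intron peak with fold 6.39 and 7.51. For Rbm39 they included peaks with fold 15.6 in CHAPIR and 8.91 in NC, and with 3.45 and 10.2. The order of the deposited folds thus differed between identical peaks of 1 gene. Among splicing genes outside the families, the poly(C)-binding proteins had the highest folds of a best peak in the CHAPIR list: Pcbp1 had fold 47.9 in CHAPIR and 5.23 in NC, and Pcbp2 had 37.1 and 11.9, both at the 5' end of the transcript. These genes and peaks were chosen after their values were seen.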
